A study of Mus musculus with 2 samples.

Results

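The genes described here mostly encode proteins that write, erase or read chemical marks on histones or move nucleosomes, or partner subunits of these proteins. They were chosen by symbol from the deposited peak table: symbols that start with Kdm, Kmt, Smarc, Arid, Setd, Sirt or Kat and go on with a number or a letter and a number, Hdac, Chd or Brd followed by a number, and Ezh1, Ezh2, Ep300, Crebbp, Eed and Suz12. The rule found 102 genes among 16934 genes with at least 1 peak, and these genes held 321 of the 43864 peaks that the table assigns to a gene (63316 peaks in all). Of 108 protein-coding RefSeq genes whose symbols meet the rule, 101 had a peak, and Arid3c, Brd8, Brd8dc, Kdm4c, Kdm5d, Kmt2d and Smarca1 had none. The remaining symbol, Kdm6bos, and the member Brd3os name transcripts from the strand opposite to Kdm6b and Brd3, and accessibility carries no strand, so their peaks cannot be ascribed to either strand.

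Histone acetyltransferases and methyltransferases add acetyl or methyl groups to histone tails, deacetylases, sirtuins and demethylases remove them, and bromodomain proteins bind acetylated lysines. SWI/SNF, ISWI and CHD remodelers use ATP to slide or evict nucleosomes, and Polycomb repressive complex 2 methylates histone H3 at silent genes. In fibroblasts of the heart, acetyltransferases, deacetylases and bromodomain proteins take part in the transcriptional response to TGF-β that accompanies the switch to myofibroblasts. The values below are the accessibility of the DNA at these genes, not the amount or activity of the proteins.

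Open DNA was mapped by ATAC-seq, which uses a transposase to place sequencing adapters where chromatin is accessible. The cells were primary murine cardiac fibroblasts from the heart, all of them treated with TGF-β (5 ng/ml, 24 h). The control library (NC) came from cells with scrambled siRNA according to the study's legend, and the other library (siPiezo2) from cells given siRNA against Piezo2, a mechanosensitive ion channel. With a single library in each condition, differences have no replicate check, no test between conditions was made, and intervals cover counting error only. The study's methods place its mouse strains on a C57BL/6J background. Which strain gave these cells, the age of the mice, and how many were pooled are not given in the sources used here. The description of the whole series names a Tet3 knockout by Cre virus in place of an siRNA, and the study's methods describe minced tissue. An siRNA acts on the mRNA, so accessibility does not check the knockdown. Because the cells were measured in bulk, a change in the share of a cell type and a change per cell cannot be told apart.

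The table gives 1 normalized read density per library for each peak. The log2 ratio used throughout is log2((siPiezo2 + 1)/(NC + 1)), per peak or per gene with densities summed over its peaks, so that negative values mean lower density in siPiezo2. Whole reads in a window of 2000 bp per peak were recovered from the densities: 4615335 in NC and 2754046 in siPiezo2, a ratio of 0.597, which the authors' normalization takes out together with a trend with density. The intervals below come from these reads without the added 1, so they are not centered on the log2 ratio printed beside them. For Smarca5, which had few reads, the reads alone gave -1.08 beside a log2 ratio of -0.95. A member gene had 21 to 1534 reads in NC and 16 to 939 in siPiezo2, and a median member peak had 66 and 41. Scaling the libraries in 3 other ways raised the log2 ratios by 0.09 to 0.14 and moved the median of all genes from -0.09 to as high as 0.05, so group medians are also given relative to all genes. Among fibroblast markers, 7 of 8 had a peak, with summed densities of 986 in NC and 905 in siPiezo2. Ddr2 held 464 and 463 of these, while Col1a1 went from 129 to 95.01, Col1a2 from 131 to 92.8, Postn from 31.2 to 21.9 and Dcn from 87.3 to 101. Of 5 cardiomyocyte markers, Myh6, Ttn and Nppa had no peak, and the other two summed to 84.0 and 82.5. Endothelial markers (4 of 4 with a peak) summed to 359 and 382, with Cdh5 going from 47.7 to 78.0 while Kdr went from 19.0 to 17.7 and Tek from 157 to 151. Leukocyte markers (2 of 4, Adgre1 and Lyz2 without one) summed to 133 and 112. Mural markers (3 of 3) summed to 413 and 340, with Rgs5 going from 127 to 56.0 and Cspg4 from 147 to 165. Mesothelial markers (3 of 3) summed to 98.8 and 84.3, with Wt1 going from 55.6 to 36.2 and Upk3b from 17.5 to 26.4. The part of other cell types in the values below was not tested.

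As a class, histone modifier and remodeler genes had ratios close to those of all genes, and for most single genes the difference lay within counting error. The median log2 ratio was -0.08 over the 102 genes and -0.09 over all genes. Below 0 lay 61 member genes (59.8%), against 62.6% of all genes, and with median-of-ratios scaling 37 did. Smarca5, Arid4a and Setd5 fell below 0.66 of NC on the scale with the added 1, which is 3 genes or 2.94% of members against 6.21% of all genes. Only Hdac8 exceeded 1.5 of NC, 0.980% against 1.54% of all genes. The 95% exact binomial (Clopper-Pearson) interval lay below 0 for 13 genes, 12.7% against 17.4% of all genes, and above 0 for 4, 3.92% against 4.56%. It included 0 for the other 85. This split turned with the scaling: with median-of-ratios scaling 6 intervals lay below 0 (5.88%, against 8.34% of all genes) and 12 above (11.8%, against 11.3%). The 6 were Arid4a, Chd2, Hdac9, Setd5, Smarca5 and Smarcc1, and Arid3a, Brd2, Kdm4a and Smarca4 were among the 12. The member genes were spread less widely (quartiles of -0.20 and 0.10) than all genes (-0.29 and 0.10), and they had more reads, with a median of 168 in NC against 120.

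**Figure D1:**
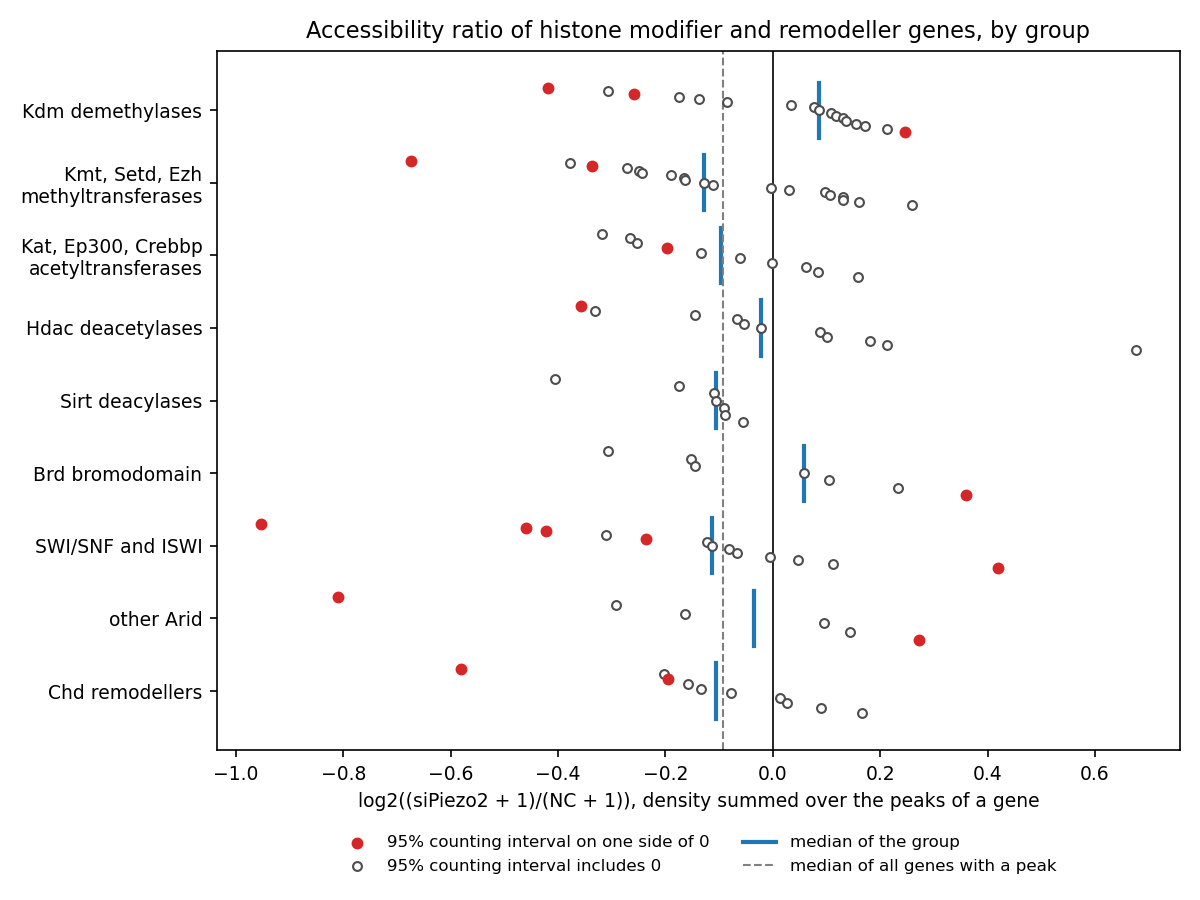
Each point is 1 member gene, placed by its log2((siPiezo2 + 1)/(NC + 1)) with densities summed over its peaks, in 1 row per enzyme or reader group (1 library per condition). Red points have a 95% counting interval on one side of 0 and open points do not; blue bars are group medians and the dashed line is the median of all 16934 genes, -0.09. Most groups have their median near the dashed line, and the medians of the Kdm and Brd genes lie above 0.

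Among the writers, the 10 acetyltransferase genes had a median log2 ratio of -0.10, and 7 of them lay below 0. Ep300, a coactivator that acetylates histones at enhancers, had a summed density of 114 in NC and 95.3 in siPiezo2 (282 and 148 reads), a log2 ratio of -0.25 with an interval of -0.57 to 0.02. Its close relative Crebbp had 66.4 and 60.5, a log2 ratio of -0.13 (-0.53 to 0.22). Both intervals include 0, so neither difference was larger than counting error. Kat6b, a MYST-family acetyltransferase, was the only gene of the group with an interval below 0. Its 10 peaks summed to 397 in NC and 347 in siPiezo2 (1008 and 524 reads), a log2 ratio of -0.20 (-0.37 to -0.06).

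The 19 methyltransferase genes had a median of -0.13, which is 0.04 below that of all genes, and 12 lay below 0. Setd5, a SET domain protein, had the lowest ratio of the group, with a summed density of 62.8 in NC and 39.0 in siPiezo2 (151 and 62 reads), or -0.67 (-1.16 to -0.28). Setd1b, a catalytic subunit of a complex that methylates histone H3 at promoters, had 133 and 105 (335 and 162 reads), or -0.34 (-0.63 to -0.08). The windows of its peaks overlap, and with only separate windows its interval was -0.67 to 0.06. Setd4, another SET domain methyltransferase, had 41.8 and 32.0, or -0.38 (-0.92 to 0.10). Kmt2a, which methylates histone H3 at active genes, had 96.5 and 88.1, or -0.13 (-0.46 to 0.16), and Setdb2, of the family that methylates histone H3 at silent chromatin, had 38.6 and 46.4, the highest ratio of the group at 0.26 (-0.20 to 0.72).

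In the core of Polycomb repressive complex 2, none of the 4 genes had an interval on one side of 0. The catalytic subunits gave nearly the same ratio, Ezh2 with 113 in NC and 95.3 in siPiezo2 (-0.25, interval -0.56 to 0.03) and Ezh1 with 77.6 and 65.4 (-0.24, -0.63 to 0.09). Suz12, the scaffold, had 46.6 and 43.4, or -0.10 (-0.57 to 0.33). Eed, the subunit that binds the methyl mark, had 64.3 and 68.4, or 0.09 (-0.29 to 0.44).

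Among the erasers, the 17 demethylase symbols (Kdm6bos among them) had the highest group median, 0.09, which is 0.18 above that of all genes. Only 6 of them lay below 0. That offset depended on which peaks were summed: it was 0.07 with promoter peaks alone and 0.05 with peaks called in both libraries, and the reads pooled over the group gave a log2 ratio of -0.01 (-0.08 to 0.07). Kdm4a, which demethylates histone H3 at lysines marked in silent and transcribed chromatin, had 146 in NC and 173 in siPiezo2 (393 and 255 reads), or 0.25 (0.01 to 0.47). Its peaks, in the 5′ UTR and a late intron, both stood at 0.24. Kdm3a, of a family that removes methyl groups from histone H3 in silent chromatin, had 69.0 and 80.1, or 0.21 (-0.13 to 0.55), while its paralog Kdm3b had 53.5 and 39.8 (127 and 64 reads), or -0.42 (-0.91 to -0.0043). Kdm6b, which removes the Polycomb mark, had 213 and 178 (558 and 266 reads), or -0.26 (-0.48 to -0.06). Its interval with only separate windows was -0.46 to 0.06. The opposite-strand symbol Kdm6bos had 25.4 and 28.7, or 0.17 (-0.41 to 0.75).

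The 11 zinc-dependent deacetylase genes had a median of -0.02. The class IIa genes (Hdac4, Hdac5, Hdac7 and Hdac9), co-repressors that shuttle between cytoplasm and nucleus, held most of the peaks of the group. Hdac9 was lower in siPiezo2, with a density of 258 in NC and 201 in siPiezo2 summed over 15 peaks (585 and 330 reads), a log2 ratio of -0.36 (-0.59 to -0.19). Hdac4 had 393 and 378, or -0.05 (-0.22 to 0.08), and Hdac5 had 271 and 267, or -0.02 (-0.21 to 0.15). Of the class I genes, the catalytic subunits of nuclear co-repressor complexes, Hdac1 had 46.7 and 50.1, or 0.10 (-0.34 to 0.52). Hdac2 had 37.0 and 29.2, or -0.33 (-0.90 to 0.17). Hdac3 had 29.6 and 31.5, or 0.09 (-0.47 to 0.62). Each of these 3 genes had 1 peak, and their intervals overlap. Hdac6, which acts mainly on cytoplasmic proteins such as tubulin, had 32.8 and 38.2, or 0.21 (-0.29 to 0.71), and Hdac10, known as a polyamine deacetylase, had 35.4 and 40.3, or 0.18 (-0.31 to 0.66). Hdac8, another class I gene, was named after its value was seen and had too few reads for a firm ratio, 21 in NC and 27 in siPiezo2 (densities of 9.63 and 16.0), or 0.68 (-0.13 to 1.64).

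All 7 sirtuins, NAD-dependent deacylases, lay below 0, and 4 of the 7 lay below the median of all genes, with a group median of -0.11. None had an interval apart from 0, and most had a single peak. Sirt1, the nuclear member with the broadest set of known substrates, had 49.6 in NC and 45.9 in siPiezo2, or -0.11 (-0.57 to 0.31). With median-of-ratios scaling, 2 of the 7 lay below 0.

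The readers had a group median of 0.06 over 7 bromodomain symbols. Brd2, a BET protein that binds acetylated histones, was higher in siPiezo2, with 167 in NC and 214 in siPiezo2 (454 and 312 reads), a log2 ratio of 0.36 (0.15 to 0.57). Its promoter peak had 66.0 in NC and 81.3 in siPiezo2 and its 5′ UTR peak 101 and 133, and because their windows overlap the same reads are partly counted in both. With only the first of them the interval was -0.05 to 0.64. Brd1, a subunit of acetyltransferase complexes, had 59.0 and 69.5, or 0.23 (-0.14 to 0.60).

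The remodeler genes of SWI/SNF and ISWI had a median log2 ratio of -0.11 over 13 genes. Of these, 4 had a counting interval below 0 (30.8%, against 17.4% of all genes). With intervals widened for the extra variance given below, only Smarcc1 of the 4 remained (1 gene, 7.69%, against 7.42% of all genes). The paralogous scaffold subunits both had counting intervals below 0: Smarcc1 with 155 in NC and 112 in siPiezo2 (366 and 180 reads), or -0.46 (-0.75 to -0.23), and Smarcc2 with 77.9 and 57.8 (192 and 91 reads), or -0.42 (-0.82 to -0.08). The value of Smarcc2 rests on 1 of its 2 peaks, since its promoter stood at -0.02, and its widened interval was -0.996 to 0.0935. The alternative ATPases had counting intervals that did not overlap, but their widened intervals did, and both included 0. Smarca2 had 206 and 174 (509 and 272 reads), or -0.24 (-0.47 to -0.04), whereas Smarca4 had 47.0 and 63.2 (113 and 101 reads), or 0.42 (0.02 to 0.82). Smarca5, the ISWI ATPase, was named after its value was seen: its single peak had 45 reads in NC and 16 in siPiezo2 (densities of 19.9 and 9.81), or -0.95 (-2.0 to -0.23). Arid1a, a DNA-binding SWI/SNF subunit, had 348 and 359 over 8 peaks, or 0.05 (-0.12 to 0.19), and Arid1b, its paralog, 627 and 599 over 22 peaks, or -0.07 (-0.20 to 0.04).

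The 6 other Arid genes ran from -0.81 to 0.27. Arid4a, a subunit of Sin3 co-repressor complexes, had the lowest ratio among genes with at least 100 reads, with densities of 40.4 in NC and 22.7 in siPiezo2 (92 and 37 reads), or -0.81 (-1.47 to -0.32). Both of its peaks lie in introns and stood at -0.82 and -0.75. Arid3a, a transcription factor that binds A and T rich DNA, had 126 and 153 (311 and 240 reads), or 0.27 (0.02 to 0.52), and with only separate windows -0.16 to 0.45. Arid5b, a partner of a histone demethylase, had 429 and 474 over 16 peaks (1044 and 753 reads), or 0.14, with an interval from just below 0 to 0.27 (0.0017 to 0.28 with only separate windows).

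The 10 Chd genes had a median of -0.11, and Chd2 and Chd9 had intervals below 0. Chd2, a remodeler found at active genes, had 210 in NC and 140 in siPiezo2 (510 and 222 reads), or -0.58 (-0.84 to -0.37). Chd9 had 532 and 465 over 12 peaks (1351 and 713 reads), or -0.20 (-0.34 to -0.07). Chd4, the ATPase of the NuRD deacetylase complex, had 45.0 and 40.2, or -0.16 (-0.65 to 0.28).

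**Figure D2:**
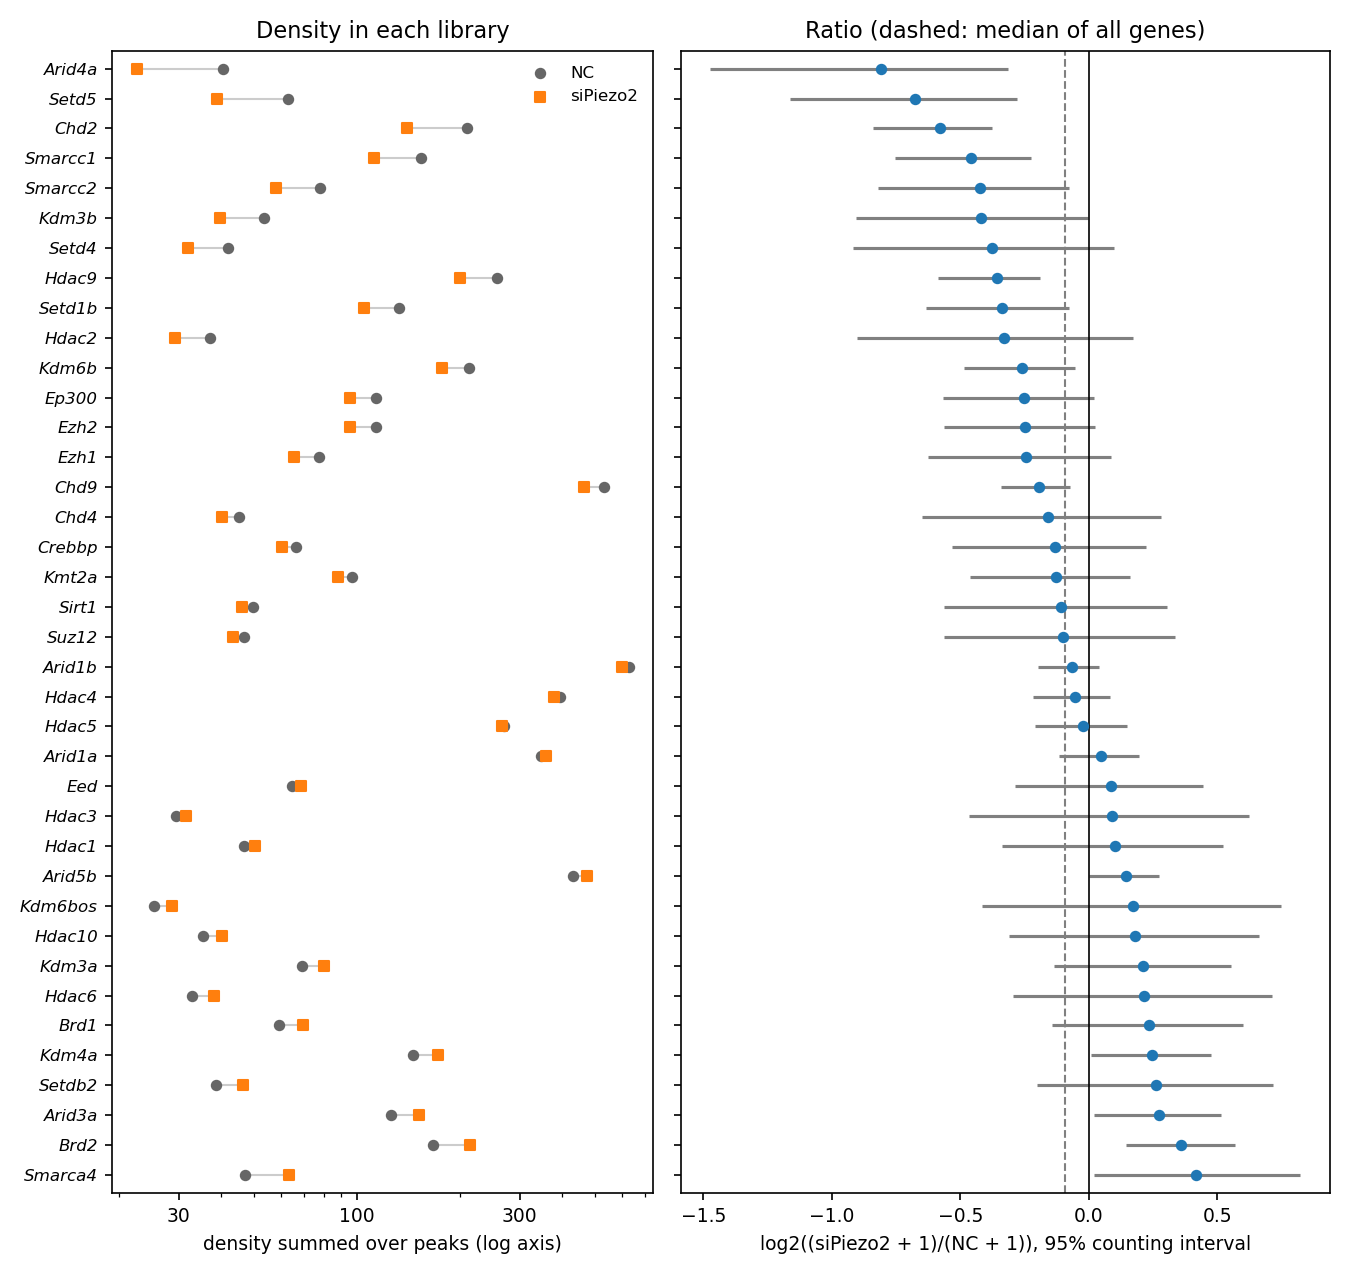
The 38 named genes reported, ordered by log2 ratio, with the summed density in each library on the left (log axis) and the log2 ratio with its 95% counting interval on the right (1 library per condition). Arid4a, Setd5, Chd2 and Smarcc1 head the list with intervals below 0, Smarca4, Brd2 and Arid3a close it with intervals above 0, and most of the intervals between them cross 0.

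The variance of the ratios at peaks common to the libraries was 2.15 times that of counting alone (2.05 times over the 127 member peaks among them). With intervals widened accordingly, 7 genes stayed on one side of 0: Arid4a, Chd2, Chd9, Hdac9, Setd5 and Smarcc1 below (6 genes, 5.88%, against 7.42% of all genes), and Brd2 above (0.980%, against 1.34%). Brd2 rests here on overlapping windows, and with separate windows even its counting interval included 0. With median-of-ratios scaling as well, the widened interval lay below 0 for Chd2 alone (0.980%, against 3.16% of all genes) and above 0 for 4 genes, Arid3a, Arid5b, Brd2 and Kdm4a (3.92%, against 3.87%). Among 12 pairs of paralogs, Smarca2 and Smarca4 were the only pair whose counting intervals did not overlap, a difference in log2 ratio of 0.65 that rests on 2 peaks of Smarca4, of which the promoter peak stood at 0.65 and the intron peak at 0.04. Widened, the intervals were -0.57 to 0.06 for Smarca2 and -0.17 to 1.01 for Smarca4, which overlap. The pairs Smarcc1 and Smarcc2 and Ezh1 and Ezh2 had the most similar ratios, 0.04 and 0.01 apart. For Hdac1 and Hdac2, Kdm6a and Kdm6b, and Setd1a and Setd1b the ratios lay 0.43, 0.39 and 0.33 apart with overlapping intervals.

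**Figure D3:**
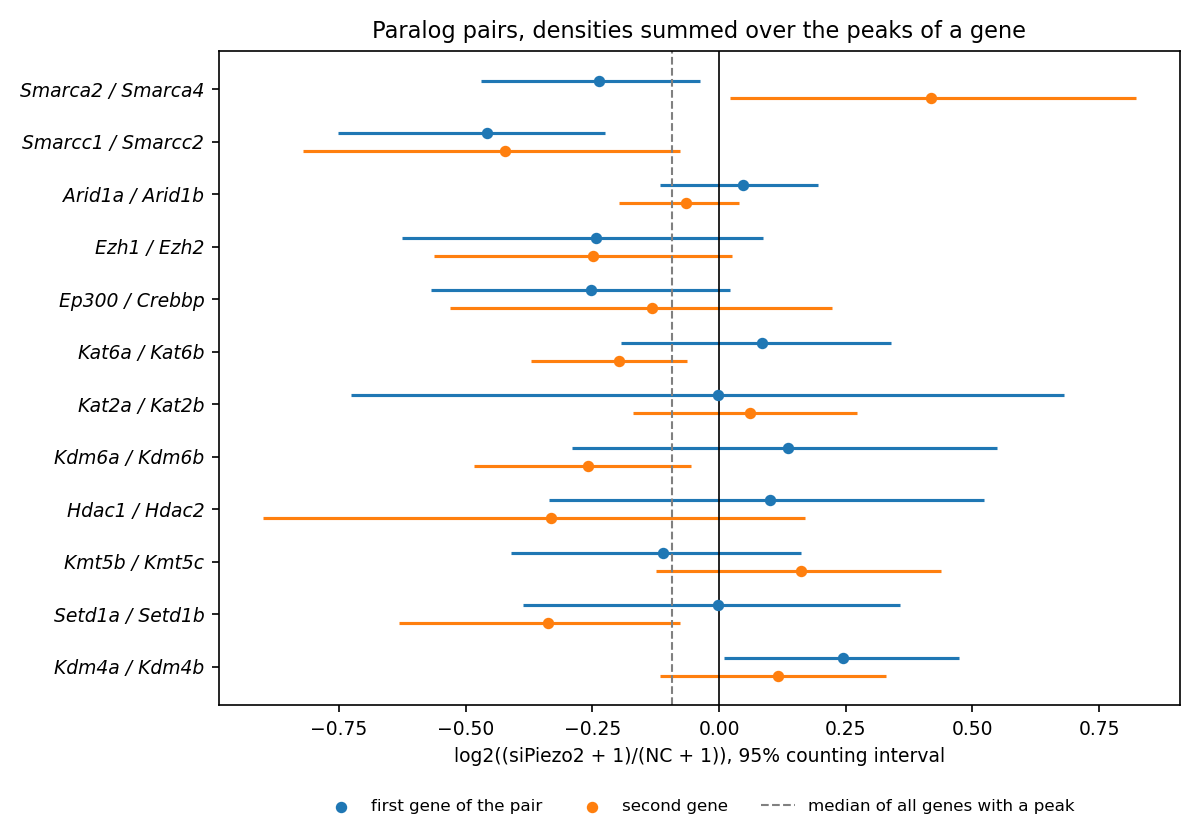
Log2((siPiezo2 + 1)/(NC + 1)) of 12 pairs of paralogs with 95% counting intervals, the first gene of each pair in blue and the second in orange (1 library per condition). The counting intervals of Smarca2 and Smarca4 lie on either side of 0, a separation lost with the widened intervals (not drawn), and those of the other 11 pairs overlap.

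At single peaks, 30 of the 321 member peaks fell below 0.66 of NC (9.35%, against 12.2% of all assigned peaks) and 11 exceeded 1.5 (3.43%, against 2.82%). With median-of-ratios scaling the split was 23 and 20, for which the shares over all peaks were not computed. The interval lay below 0 at 32 member peaks (9.97%, against 13.0%) and above 0 at 16 (4.98%, against 4.04%), and with median-of-ratios scaling below 0 at 14 (4.36%, against 7.57%) and above 0 at 33 (10.3%, against 8.19%). The lower peaks belonged to 22 genes and the higher peaks to 10, and 5 genes (Arid1b, Arid5b, Hdac5, Kat6a and Kdm1a) held both. The shares of all genes that hold such peaks were not computed, so these counts tell only where the member peaks lie. Of the 30 lower peaks, 24 lie in introns (80.0%, against 73.8% of all lower peaks) and 25 were called in NC only (83.3%, against 86.4%). Over 188 member peaks called in NC only the median was -0.24, over 127 called in both libraries 0.10 and over 6 called in siPiezo2 only 0.40. The call is itself made from these reads and NC was deeper, so these medians describe the call groups and are no separate finding.

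The promoter peaks of histone modifier and remodeler genes had a median near 0, and their intron peaks a lower one. Of the member genes, 74 had a promoter peak, meaning a peak the annotation places within 1 kb of a transcription start, 90 peaks in all. Their median density was 35.7 in NC and 33.7 in siPiezo2 and their median log2 ratio -0.01, against -0.03 over all 9251 promoter peaks. Below 0.66 of NC were 3 of them (3.33%, against 5.86% of all promoter peaks), in Chd2, Smarca2 and Smarca5, and above 1.5 were 3 (3.33%, against 1.98%), in Smarca4, Kat6a and Hdac5. The 192 intron peaks had a median of -0.17, the same as over all intron peaks to 2 decimals, and the medians were -0.08 for the 44 in first introns and -0.20 for the 148 in later introns, against -0.15 and -0.17 over all intron peaks. Of the member peaks in first introns 63.6% lay below 0 (against 66.1% over all such peaks), and of the later ones 66.2% (against 66.3%). In the 39 genes with both kinds of peak, the promoter ratio exceeded the intron ratio in 25 (64.1%, against 61.9% of 3500 such genes), by a median of 0.12 against 0.11. Over all genes the difference between promoters and introns was thus of like size. The promoter ratio exceeded the intron ratio most in Kdm1a (by 0.85), Kat6a (0.82), Kdm4b (0.82), Kat6b (0.79), Kmt2a (0.78) and Arid2 (0.76). It lay furthest below the intron ratio in Kdm5c (a difference of -0.79), Kdm5a (-0.64) and Smarcb1 (-0.54), each with 1 intron peak.

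**Figure D4:**
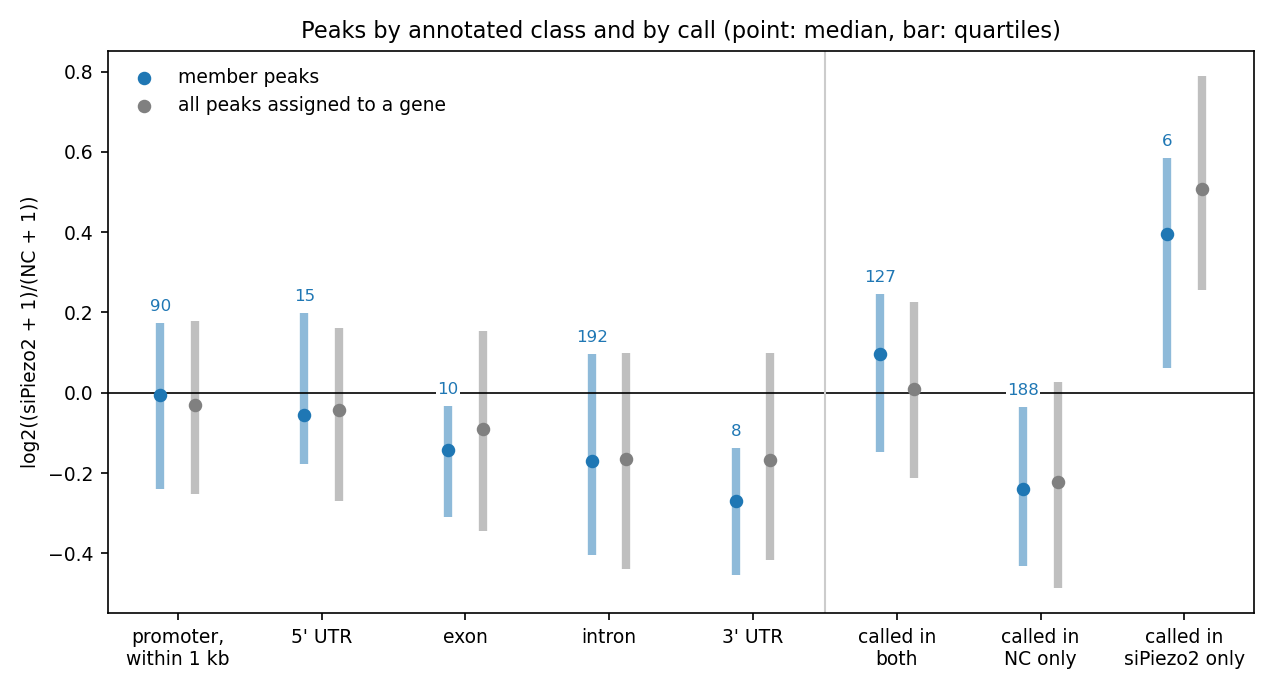
Median (point) and quartiles (bar) of the peak log2 ratio for member peaks (blue, with their number) and all peaks assigned to a gene (gray), by annotated class on the left and by the library in which the peak was called on the right. Promoter peaks lie close to 0 and intron peaks at -0.17 in members and all peaks alike.

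Not every promoter peak sits at a main start. At 66 of the 90, the transcript in the table spans at least 50% of the RefSeq gene, and their median was -0.01, with median densities of 37.0 in NC and 39.3 in siPiezo2. At 23, the transcript is shorter, and their median was -0.21, with densities of 26.1 and 21.8. The shares below 0 were alike, 51.5% at the longer and 52.2% at the shorter transcripts, and over all promoter peaks the medians were -0.02 and -0.07 (52.8% and 57.7% below 0). The 3 lowest promoter peaks are all of the second kind: that of Chd2 at chr7:73096754-73097216 (GRCm39), with 54.0 in NC and 19.2 in siPiezo2 (133 and 30 reads), or -1.44 (-2.15 to -0.95), that of Smarca5, and that of Smarca2 with 37.2 and 19.5 (90 and 31 reads), or -0.90 (-1.60 to -0.36). At the start of the full-length transcripts, Chd2 stood at -0.28 (-1.04 to 0.38) and Smarca2 at -0.07 (-0.43 to 0.27). By level, which can be compared between genes because the windows are equal, the highest member promoter peak was that of Kat6b, with 125 in NC and 154 in siPiezo2 (351 and 217 reads), or 0.29 (0.04 to 0.54), at the 99.7th percentile of all promoter peaks. Those of Kdm4b (98.9 and 131), Kmt5c (105 and 117), Kat7 (97.8 and 122) and Kmt2b (93.1 and 99.6) followed, and all 5 had a higher density in siPiezo2, as did 83.7% of the 215 promoter peaks in the table that were at least as strong. The intervals of Kmt5c (-0.12 to 0.44) and Kmt2b (-0.21 to 0.39) included 0.

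Promoter sequences are shown for the 3 lowest and 3 highest promoter peaks that lie within 300 bp of the start of a nearly full-length transcript, have at least 100 reads and belong to a gene with a single RefSeq promoter, so that the letters can be read beside the values. They run from 250 bases before to 50 after the RefSeq start (GRCm38.p6). Capitals mark matches on either strand to the ETS core CCGGAA, the TEAD core GGAATG, the AP-1 site TGANTCA or the CArG box bound by SRF. The ETS and TEAD motifs can overlap by 4 bases.
Hdac2, chr10:36974294-36974593 on the plus strand: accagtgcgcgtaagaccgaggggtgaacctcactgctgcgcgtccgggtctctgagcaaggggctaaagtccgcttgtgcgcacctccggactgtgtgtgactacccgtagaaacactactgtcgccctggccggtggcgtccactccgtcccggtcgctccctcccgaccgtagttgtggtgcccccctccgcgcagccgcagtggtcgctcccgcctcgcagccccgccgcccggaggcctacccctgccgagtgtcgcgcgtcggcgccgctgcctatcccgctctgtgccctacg
Smarcb1, chr10:75921565-75921864 on the minus strand: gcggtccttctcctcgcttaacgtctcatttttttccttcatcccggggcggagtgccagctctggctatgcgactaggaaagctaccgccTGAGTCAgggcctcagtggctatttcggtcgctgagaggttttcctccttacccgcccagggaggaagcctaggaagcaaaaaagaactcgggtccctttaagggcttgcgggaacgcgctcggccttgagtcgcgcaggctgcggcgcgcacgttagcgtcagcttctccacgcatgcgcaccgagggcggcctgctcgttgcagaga
Kat14, chr2:144368782-144369081 on the plus strand: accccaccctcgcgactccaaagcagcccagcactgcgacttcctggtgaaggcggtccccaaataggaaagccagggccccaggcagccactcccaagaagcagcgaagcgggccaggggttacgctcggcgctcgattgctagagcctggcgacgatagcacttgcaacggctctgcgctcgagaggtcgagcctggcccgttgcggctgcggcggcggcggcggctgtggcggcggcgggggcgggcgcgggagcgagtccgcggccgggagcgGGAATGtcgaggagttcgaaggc
Smarcd2, chr11:106267583-106267882 on the minus strand: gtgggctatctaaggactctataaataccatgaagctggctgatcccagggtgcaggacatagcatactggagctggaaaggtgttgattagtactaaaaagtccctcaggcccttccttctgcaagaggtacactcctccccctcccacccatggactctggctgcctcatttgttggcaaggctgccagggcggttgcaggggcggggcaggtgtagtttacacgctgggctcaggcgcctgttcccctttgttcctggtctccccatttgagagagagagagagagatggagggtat
Kmt2a, chr9:44881240-44881539 on the minus strand: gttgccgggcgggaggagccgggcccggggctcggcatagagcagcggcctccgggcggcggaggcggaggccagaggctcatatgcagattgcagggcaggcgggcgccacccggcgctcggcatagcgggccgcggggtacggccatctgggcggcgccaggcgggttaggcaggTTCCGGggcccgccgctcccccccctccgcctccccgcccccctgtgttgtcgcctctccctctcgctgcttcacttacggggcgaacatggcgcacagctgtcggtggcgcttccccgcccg
Smarca4, chr9:21615919-21616218 on the plus strand: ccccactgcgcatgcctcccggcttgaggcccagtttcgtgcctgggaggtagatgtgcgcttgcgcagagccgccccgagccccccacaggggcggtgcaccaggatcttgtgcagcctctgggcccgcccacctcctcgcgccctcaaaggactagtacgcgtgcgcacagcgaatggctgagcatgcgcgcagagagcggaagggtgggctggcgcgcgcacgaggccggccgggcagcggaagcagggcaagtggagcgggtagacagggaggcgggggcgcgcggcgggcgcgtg

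The first 3 of these promoters had lower density in siPiezo2: Hdac2 with 37.0 in NC and 29.2 in siPiezo2 (-0.33, interval -0.90 to 0.17), Smarcb1, a core SWI/SNF subunit, with 35.1 and 27.8 (-0.33, -0.91 to 0.19), and Kat14, an acetyltransferase complex subunit, with 33.3 and 26.5 (-0.32, -0.92 to 0.21). The last 3 had higher density: Smarcd2, a SWI/SNF accessory subunit, with 42.8 and 54.0 (0.33, -0.10 to 0.75), Kmt2a with 37.0 and 49.6 (0.42, -0.03 to 0.87), and Smarca4 with 26.1 and 41.7 (0.65, 0.15 to 1.19). Only the interval of Smarca4 excluded 0, and its window holds none of the 4 motifs. The window of Smarcb1 holds an AP-1 match, that of Kat14 a TEAD match and that of Kmt2a an ETS match. The windows of Hdac2, Kat14 and Kmt2a each hold 36 CpG, that of Smarca4 33 and that of Smarcb1 27, while that of Smarcd2 holds 4. Over the 106 RefSeq promoters of 79 member genes the median was 24 CpG, against 7 over 32544 promoters. The ETS core was present in 29.2% of the member promoters and 15.0% of all, the TEAD core in 15.1% and 14.6%, the AP-1 site in 9.43% and 7.79% and the CArG box in 1.89% and 1.64%. The member genes all had a peak, which was not asked of the 32544 promoters, and the ETS core itself holds a CpG. No promoters matched for a peak or for CpG were compared, so what lies behind the ETS difference was not tested. A match describes the letters only and says nothing of binding.

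Of 69 members with at least 2 peaks, 44 had peak ratios on both sides of 0, whether or not those passed counting error (63.8%, against 60.7% of all such genes), 17 had all below and 8 all above. Peaks whose intervals lay on opposite sides of 0 were found in 6 of the 69 (8.70%, against 4.68%). Kdm1a, the demethylase of co-repressor complexes that acts on histone H3, held peaks with intervals on opposite sides of 0. A peak in its first intron at chr4:136325787-136326454 (GRCm39) went from 80.6 in NC to 44.5 in siPiezo2 (210 and 67 reads), or -0.84 (-1.29 to -0.47). A peak upstream of an internal start at chr4:136297327-136297745 went from 35.8 to 63.6 (91 and 98 reads), or 0.81 (0.40 to 1.26), and the peak at its main start from 23.97 to 24.2. The opposite directions left the summed ratio of Kdm1a at -0.08 (-0.35 to 0.16).

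The genes with the most peaks ranged from Arid5b, mostly above 0, to Hdac9, mostly below it. Of the 16 peaks of Arid5b, 6 lay below 0, and the highest member peak of all lies in its intron 7 at chr10:67957765-67958105, with 14.2 in NC and 30.5 in siPiezo2 (33 and 50 reads), or 1.05 (0.45 to 1.79). Another in its intron 4 had 18.9 and 35.9, or 0.89 (0.35 to 1.53). Of the 15 peaks of Hdac9, 13 lay below 0 with a median of -0.41, and 1 of the 15 was called in both libraries, at 31.0 and 19.4, or -0.65 (-1.36 to -0.08). That peak lies in the last intron, and the start nearest to it is that of Twist1, so assignment to Hdac9 rests on the gene body. The single peaks of Hdac9 had 27 to 74 reads in NC, and the interval of 1 of the 15 excluded 0.

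In Kat6b the promoter stood above 0, with an interval above 0 as given earlier, and all 9 intron peaks stood below it, of which 2 had an interval below 0. The lowest of these, in intron 2 at chr14:21574092-21574578, went from 53.6 to 22.5 (133 and 35 reads), or -1.22 (-1.87 to -0.74). Chd2 had 2 neighboring low peaks, the one at the internal start and one in intron 32 at chr7:73102199-73102747 with 35.3 and 14.4 (84 and 23 reads), or -1.23 (-2.07 to -0.66). Its other 4 peaks stood between -0.29 and 0.04, so the ratio of the gene rests on those 2 peaks, and with only peaks called in both libraries it was -0.15. The promoter of Smarcc1 had 29.2 and 29.5, or 0.01 (-0.56 to 0.56), and its 5 intron peaks stood between -0.83 and -0.35. Of the 22 peaks of Arid1b, 15 lay below 0, and they ranged from -0.78 to 0.61. Of the 11 peaks of Hdac4, 6 did, from -0.74 to 0.42.

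**Figure D5:**
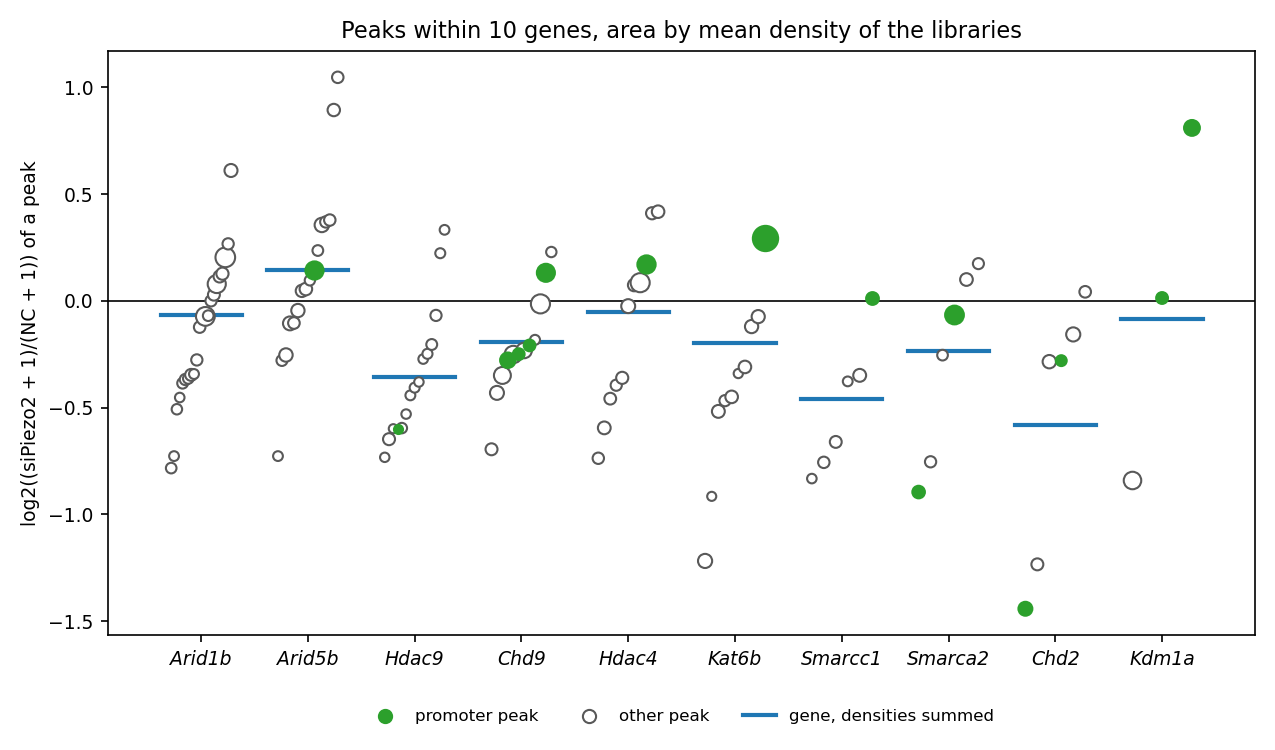
Peak log2 ratios in 10 member genes, ordered by size within each gene, with promoter peaks in green, other peaks open, the area of a point following the mean density of the libraries, and the summed gene ratio as a blue bar (1 library per condition). Kdm1a has peaks at -0.84 and 0.81, and in Kat6b a large promoter peak at 0.29 stands above 9 lower intron peaks.

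Among member peaks in the strongest 25% of all peaks, the 5 lowest were those of Chd2 (internal start), Kat6b (intron 2) and Kdm1a (intron 1) given above, a peak in the 3′ UTR of Smarcc2 and one in intron 1 of a shorter transcript of Setd5. The peak of Smarcc2 had 47.1 in NC and 27.6 in siPiezo2, or -0.75 (-1.33 to -0.28), and its nearest start is that of the neighboring Myl6, a myosin light chain gene. That of Setd5 had 41.9 and 25.5, or -0.70 (-1.30 to -0.20). The 5 highest were the Kdm1a peak at 0.81, an intron 4 peak of Arid1a with 30.9 and 49.9, or 0.67 (0.22 to 1.16), the promoters of Kat6a with 29.1 and 46.4, or 0.66 (0.19 to 1.17), and Smarca4, and an intron 1 peak of Kat2b, an acetyltransferase, with 35.7 and 53.5, or 0.57 (0.13 to 1.03). In all, the start nearest to 39 of the 321 member peaks belongs to another gene, so their assignment rests on the position in the gene body alone.

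Of a list of 111 further chromatin genes that the symbol rule leaves out, such as Polycomb repressive complex 1, NuRD, INO80 and arginine methyltransferase subunits, 106 had a peak. Their median was -0.10, and 71 lay below 0 (67.0%, against 62.6% of all genes). Below 0.66 of NC were 4 (3.77%, against 6.21%) and above 1.5 was 1 (0.943%, against 1.54%). The counting interval lay below 0 for 20 (18.9%, against 17.4%) and above 0 for 8 (7.55%, against 4.56%). The widened interval lay below 0 for 5 (4.72%, against 7.42%) and above 0 for 2 (1.89%, against 1.34%).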

How the data were processed

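ATAC-seq libraries of TGF-β-treated primary murine cardiac fibroblasts, 1 with control siRNA (NC) and 1 with siRNA against Piezo2 (siPiezo2), were assigned to conditions by their labels. A single peak table was deposited. The signal columns of this table, used here, are read densities that the authors normalized between the libraries, by a tool not given in the sources used here. The log2 columns and the p-value column deposited with them hold the authors' own comparison and were not used. The study's methods name bwa, Picard and MACS2. The submitters' processing notes give BWA 0.7.12 and the build mm10, while the table's coordinates are those of GRCm39: 5 peaks lie on a scaffold with a GRCm39 name, and for 89 of 101 member genes the first listed peak falls outside the GRCm38 RefSeq gene with 5 kb added on each side. Peak positions are therefore given as GRCm39, promoter sequences come from the RefSeq tables of GRCm38.p6, and no sequence was read under the peaks.

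Densities were summed per gene over the peaks the table assigns to it, and log2 ratios taken after adding 1. Reads per 2000 bp window were recovered by finding the intercept (-0.25) and slope (0.17) of a straight line, relating log2 ratio to mean log2 density, at which reads become whole numbers in both libraries, assuming that 1 had been added to each number of reads. They came out whole for 100% of peaks within 0.05 of a read. Exact binomial (Clopper-Pearson) intervals at 95% compare the recovered reads, without the 1 added for the log2 ratios, with the ratio this fit predicts. PCR duplicates and biological spread are not covered. Where the windows of peaks of 1 gene overlap, reads are counted more than once, and intervals from separate windows (288 member peaks) are given where they change a call.

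Members, gene lists and alternatives were chosen with earlier results of these data known. Genes named were the 10 lowest and 10 highest with at least 100 reads, the 5 with most peaks and 18 fixed genes, 39 in all, of which 1 is not reported here. Peaks named were the 5 lowest and 5 highest member peaks among the strongest 25%. Other genes and peaks with values, such as Smarca5, Hdac8, Kat6b and the members of pairs, and the genes with promoter sequences, were chosen after their values were seen. Calculations ran in Python (version 3.11.15) with pandas 2.3.3, numpy 2.4.6 and scipy 1.17.1, and plots were drawn with matplotlib 3.10.9.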

Additional observations from a re-analysis of the deposited data

How the results depend on the processing

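Scaling, the choice of peaks and the threshold changed counts and the sign of small medians. The member gene median of -0.08 changed sign to 0.0573 with median-of-ratios scaling, 0.0604 with trimmed mean scaling, 0.0066 with equal totals, 0.0241 with promoter peaks only and 0.0824 with peaks called in both libraries, and it was -0.0462 with the stronger 50% of peaks by density and -0.0223 with the strongest peak of each gene. All genes moved in the same direction in each case. Relative to all genes the member median of 0.01 became 0.0492 with promoter peaks only and 0.0738 with peaks called in both libraries. The count of members below 0 (61) became 37 with median-of-ratios and with trimmed mean scaling, 35 of 74 with promoter peaks only and 29 of 74 with peaks called in both libraries. The promoter peak median of -0.01 became 0.13 with median-of-ratios and 0.13 with trimmed mean scaling, 0.0792 with equal totals and 0.10 with peaks called in both libraries. The 3 genes past 1.5-fold lower became 6 with the strongest peak and 0 at a 2-fold threshold. The 1 gene higher became 4 with the strongest peak, 2 with promoter peaks, 2 with the stronger 50% of peaks and 0 at 2-fold, with autosomes only (Hdac8 is X-linked) and with at least 100 reads, an alternative chosen after seeing the data. Lower member peaks (30) became 12 in the stronger 50% of peaks, 5 among peaks called in both libraries and 6 at 2-fold, and higher ones (11) became 20 with median-of-ratios, 20 with trimmed mean scaling and 1 at 2-fold. Intervals below 0 (13 genes) became 8 with total reads as the reference and 6 when widened, and those above 0 (4) became 6 and 1. With scalings added after seeing the data, counts below and above 0 were 6 and 12 with median-of-ratios, 6 and 13 with trimmed mean scaling and 6 and 5 with equal totals, and with widened intervals as well 1 and 4, 1 and 4, and 3 and 2. Of 110 group values relative to all genes, 99 shifted by no more than the width, on that side, of the counting interval of the group's pooled reads. A change of scaling nearly cancels in such values, and several alternatives leave almost all genes of a group as they were. The count of 99 therefore does not measure how firm the group values are. The group values that shifted further were, with peaks called in both libraries, SWI/SNF and ISWI 0.12, acetyltransferases 0.11, demethylases 0.0485 and methyltransferases 0.0658. With promoter peaks only they were demethylases 0.0706 and methyltransferases 0.0894, with the strongest peak deacetylases 0.15 and SWI/SNF and ISWI 0.17, and with the stronger 50% of peaks SWI/SNF and ISWI 0.0551, methyltransferases -0.12 and other Arid genes 0.17. Smarcc1 changed sign to 0.0142 with promoter peaks only, since its lower peaks lie in introns. Among named genes whose interval excluded 0, it was the only one to change sign. Of 410 values of named genes under the alternatives, 36 more shifted beyond counting error. Named genes whose interval included 0 changed sign as well. With promoter peaks only, such changes included Kmt2a (from -0.13 to 0.42), Hdac4 (-0.05 to 0.17), Hdac5 (-0.02 to 0.11) and Arid1a (0.05 to -0.11). With peaks called in both libraries Smarcc1 stood at -0.17, Chd2 at -0.15, Kdm6b at -0.03, Hdac9 at -0.65 and Arid3a at 0.53. With promoter peaks only Chd2 stood at -1.02 and Smarcc2 at -0.02, with the strongest peak Chd9 at -0.01, and with median-of-ratios scaling Chd9 at -0.06. The cause of the other changes was not tested. No paired analysis was possible because there was 1 library per condition, and none could be left out.

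Depth limits single peaks, with a median of 66 reads in NC and 41 in siPiezo2 at a member peak, and at member peaks common to the libraries the variance was 2.05 times that of counting alone.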
